A study of Homo sapiens with 3 samples.

Results

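The miR-17-92 cluster was described in the small RNA of HEK293, an immortal line of human embryonic kidney cells. Its entries were all listed miRNAs named miR-17, miR-18a, miR-19a, miR-19b, miR-20a or miR-92a, on either arm of the hairpin. The rule found 8 of 137 miRNA entries, or 5.84%, in a deposited table of raw counts that also lists 122 small nucleolar RNAs (snoRNAs). The 8 entries were miR-17-5p, miR-17-3p, miR-18a-5p, miR-19a-3p, miR-19b-3p, miR-19b-1-5p, miR-20a-5p and miR-92a-3p, where 5p and 3p name the arm. The series, whose title concerns the snoRNA U3 as a source of miRNAs, holds 3 libraries of 1 group and no treatment. All 3 came from HEK293 cells grown in DMEM with serum and antibiotics. RNA was taken with phenol and chloroform, small RNA was enriched with magnetic beads, and the Ion Total RNA-Seq Kit v2 served for library making. Whether each library was a separate culture is not said in the labels, so the spread between them may be technical.

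The table has the columns L001, L004 and L007, while the sample titles begin with L001, L002 and L003. The columns L004 and L007 therefore match no title. All 122 snoRNA counts in L004 were equal to those deposited for the library titled L002, and all 122 in L007 to those of the library titled L003. Other pairings of a column with a library gave at most 3 equal counts. Both columns were used as HEK293 libraries under their own names and were given no sample or replicate number. L001, whose name and 122 snoRNA counts match its sample, stands first in each series of values below.

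A miRNA is cut from a hairpin in a longer primary transcript, and a cluster is a set of hairpins that share 1 such transcript. Usually 1 arm of the hairpin, the guide, is kept in an Argonaute protein and the other is degraded. The guide finds messenger RNAs chiefly through its seed, the bases just after its first base. The miR-17-92 cluster is transcribed under MYC and E2F factors and is known as an oncogene in B-cell lymphoma. Its members restrain inhibitors of the cell cycle, such as CDKN1A.

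The hairpins lie at chr13:91350605-91351391 on the plus strand of GRCh38, a span of 787 nt within the host gene MIR17HG (chr13:91347820-91354579, GENCODE 29). All 6 are exonic in the transcripts MIR17HG-202 and MIR17HG-203 and intronic in MIR17HG-201. The listed mature sequences are shown because the seed groups and the near-identity of several members bear on the counts. They are from RefSeq (GRCh38.p14), 5′ to 3′, with the seed, bases 2 to 8, in capitals.
miR-17-5p: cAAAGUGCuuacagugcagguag
miR-20a-5p: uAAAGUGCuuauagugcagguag
miR-18a-5p: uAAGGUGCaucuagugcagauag
miR-19a-3p: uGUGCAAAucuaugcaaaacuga
miR-19b-3p: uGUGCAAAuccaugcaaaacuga
miR-92a-3p: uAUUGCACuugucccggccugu
miR-17-3p: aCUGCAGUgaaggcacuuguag
miR-19b-1-5p: aGUUUUGCagguuugcauccagc

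Positions are counted from 1 at the 5′ end, with the base of the first-named miRNA before the position. From miR-19a-3p to miR-19b-3p the only change is U11C. From miR-17-5p to miR-20a-5p the changes are C1U and C12U, and from miR-17-5p to miR-18a-5p they are C1U, A4G, U9A, A11C, C12U and G20A, of which A4G lies in the seed. The sources used here do not give how reads that match more than 1 entry were placed, so counts of near-identical entries are uncertain. miR-19b-3p and miR-92a-3p are also encoded by MIR19B2 and MIR92A2 on chromosome X, and their reads cannot be assigned to either locus.

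The miR-17-92 members took more of the listed miRNA counts than the other 129 miRNA entries together, in all 3 libraries. They had 33677 of 60085 counts in L001, 95799 of 160916 in L004 and 27547 of 51173 in L007. These were 56.0% of L001 (exact Clopper-Pearson 95% interval 55.7% to 56.4%), 59.5% of L004 (59.3% to 59.8%) and 53.8% of L007 (53.4% to 54.3%), with a mean of 56.5% ± 2.9 (SD, n = 3). The share was highest in L004, which also had the most miRNA counts per snoRNA count, 14.1 against 3.22 in L001 and 2.91 in L007. The part of that difference in the share was not tested, and without L004 the mean was 54.9%. Intervals cover counting error only, since the reads carry no molecular identifiers and are not independent molecules, and whether each entry gave equally many reads per molecule was not tested. No p-value is given, because the design has 1 group and a two-sided exact sign-flip test over 3 libraries cannot go below 0.25.

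Members held the first 5 ranks of the 137 miRNAs by mean share, and these 5 alone took 55.6% ± 2.9 of the miRNA counts (SD, n = 3). The most counted miRNAs outside the cluster and its paralogues were miR-103a-3p with 2.73% ± 0.28, miR-16-5p with 2.04% ± 1.2, miR-221-3p with 1.93% ± 0.64, miR-30c-5p with 1.93% ± 0.20 and let-7a-5p with 1.60% ± 0.36 (SD, n = 3 each). miR-19b-3p, miR-19a-3p, miR-18a-5p and miR-20a-5p had at least 5.52% in every library, while no miRNA outside the cluster exceeded 3.12% in any. Of 32 chosen miRNAs that mark other cell types (liver, muscle, blood, neurons, pluripotent cells, fibroblasts, epithelium), 1 was listed, the neuronal miR-9-5p, with 44, 98 and 76 counts. Every listed entry had more than 10 counts in all 3 libraries, so an unlisted marker may still have had reads.

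**Figure D1:**
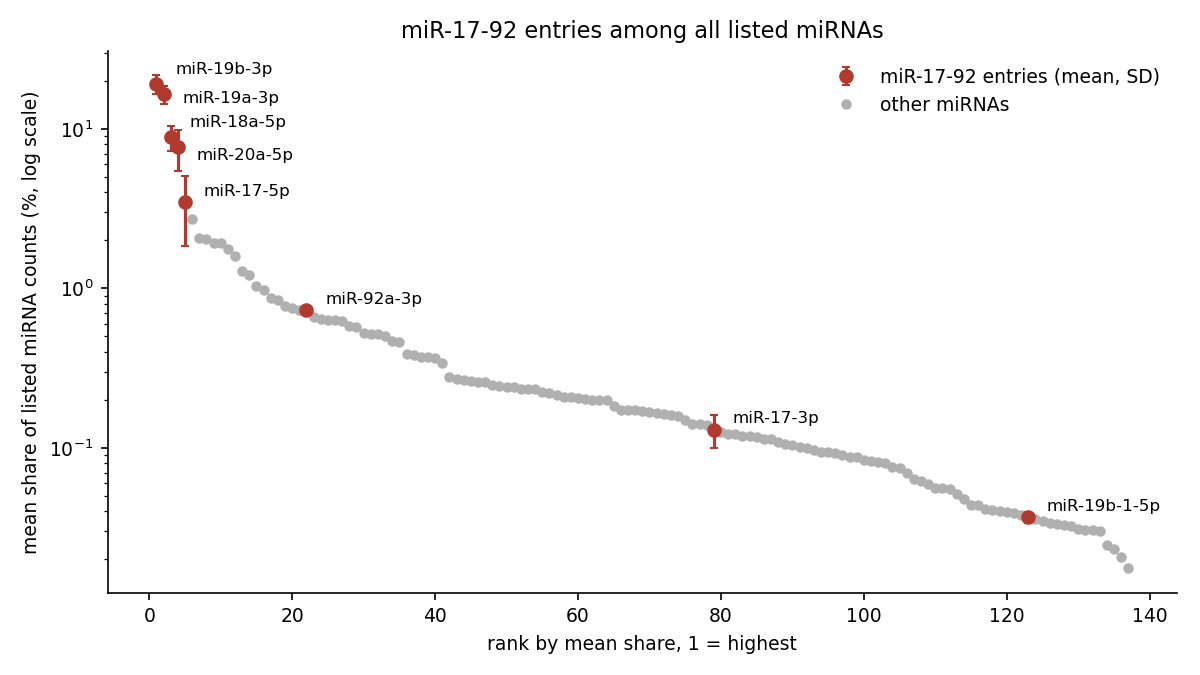
Mean share of the listed miRNA counts (%, log scale) against rank for 137 miRNA entries, with miR-17-92 entries in red (bars, SD over 3 libraries) and the other miRNAs in grey. The red points fill ranks 1 to 5, and miR-92a-3p stands at rank 22.

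The miR-19 pair, the main oncogenic part of the cluster in mouse lymphoma models, was the most abundant. miR-19b-3p had 10752, 35435 and 8940 counts in L001, L004 and L007, or 17.9%, 22.0% and 17.5% of the miRNA counts (19.1% ± 2.5, SD, n = 3). miR-19a-3p had 11171, 26585 and 7290 counts, or 18.6%, 16.5% and 14.2% (16.5% ± 2.2, SD, n = 3). Their ranges overlapped, and each led in at least 1 library: miR-19a-3p in L001, miR-19b-3p in L004 and L007. The log2 ratio of miR-19b-3p to miR-19a-3p was 0.22 ± 0.24 (SD, n = 3), so the pair was not separated beyond the spread between libraries. In L001 alone the log2 ratio was -0.06.

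miR-18a-5p, which is known to act on members of TGF-β signalling, ranked 3 by mean share. It had 4878, 17263 and 3965 counts in L001, L004 and L007, or 8.12%, 10.7% and 7.75% (8.86% ± 1.6, SD, n = 3). All of its values lay below all values of the miR-19 pair, and miR-19a-3p exceeded it 1.86-fold (log2 0.90 ± 0.29, SD) in 3 of 3 libraries.

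miR-20a-5p and miR-17-5p share a seed that acts on CDKN1A and other brakes of the cell cycle. miR-20a-5p had 3315, 12039 and 5105 counts, or 5.52%, 7.48% and 9.98% of L001, L004 and L007 (7.66% ± 2.2, SD, n = 3). Its range overlapped that of miR-18a-5p, which was higher in L001 and L004 and lower in L007, with a log2 ratio of miR-18a-5p to miR-20a-5p of 0.24 ± 0.52 (SD, n = 3). miR-17-5p had 3062, 3000 and 1767 counts, or 5.10%, 1.86% and 3.45% (3.47% ± 1.6, SD, n = 3). It ranked 5, 8 and 5 in L001, L004 and L007, the lowest rank being in L004, which had the most listed miRNA counts and the fewest listed snoRNA counts. miR-20a-5p exceeded miR-17-5p 1.08-fold in L001, 4.01-fold in L004 and 2.89-fold in L007 (log2 1.22 ± 0.98, SD), in the same direction in all 3 but by an uneven amount.

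miR-92a-3p, a regulator of blood vessel growth in mouse, stood apart from the other guides. It had 416, 1206 and 381 counts, or 0.692%, 0.749% and 0.745% (0.729% ± 0.032, SD, n = 3), and ranked 22 by mean share. Every value lay below every value of the 5 members above, and miR-17-5p, the nearest, exceeded it 4.40-fold (log2 2.14 ± 0.79, SD). The remaining entries were low. miR-17-3p had 60, 209 and 82 counts (0.0999%, 0.130% and 0.160%), and miR-19b-1-5p had 23, 62 and 17 counts (0.0383%, 0.0385% and 0.0332%). miR-92a-3p exceeded miR-17-3p 5.71-fold (log2 2.51 ± 0.29, SD), and miR-17-3p exceeded miR-19b-1-5p 3.49-fold (log2 1.80 ± 0.45, SD), each in 3 of 3 libraries.

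**Figure D2:**
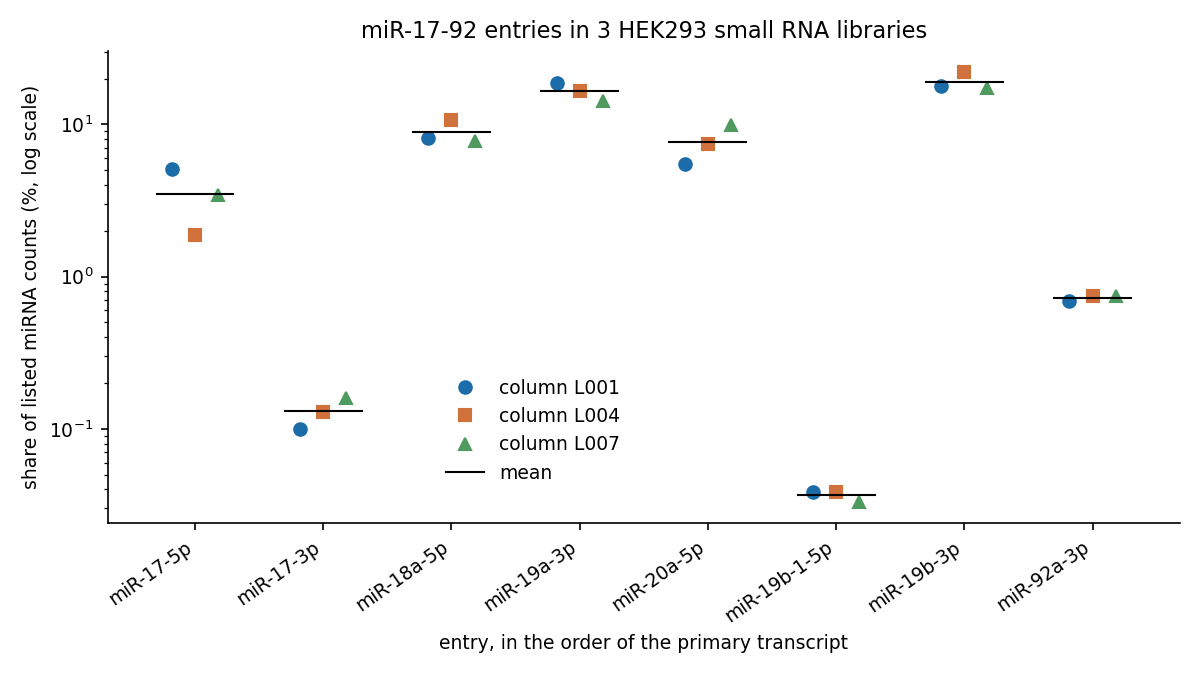
Share of the listed miRNA counts (%, log scale) of each miR-17-92 entry in the columns L001, L004 and L007 (points) with the mean (line), in the order of the primary transcript. miR-19a-3p and miR-19b-3p lie between 14.2% and 22.0%, and miR-92a-3p lies between 0.692% and 0.749%.

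The levels of guides from the same primary transcript were then compared along it. The hairpins run in the order MIR17, MIR18A, MIR19A, MIR20A, MIR19B1 and MIR92A1, with 62, 69, 92, 56 and 35 nt between neighbours. The level did not follow this order. miR-18a-5p exceeded its upstream neighbour miR-17-5p 2.74-fold, and miR-19a-3p exceeded miR-18a-5p 1.86-fold. miR-20a-5p was 0.455 times as abundant as miR-19a-3p, and miR-19b-3p exceeded miR-20a-5p 2.56-fold. Each of these differences had the same direction in 3 of 3 libraries. The widest step lay between the closest hairpins: miR-19b-3p exceeded miR-92a-3p 25.8-fold, 29.4-fold and 23.5-fold in L001, L004 and L007, a mean log2 ratio of 4.71 ± 0.16 (SD, n = 3). Of these guides miR-92a-3p is 22 nt long and the others are 23 nt long, and the part of length was not tested.

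**Figure D3:**
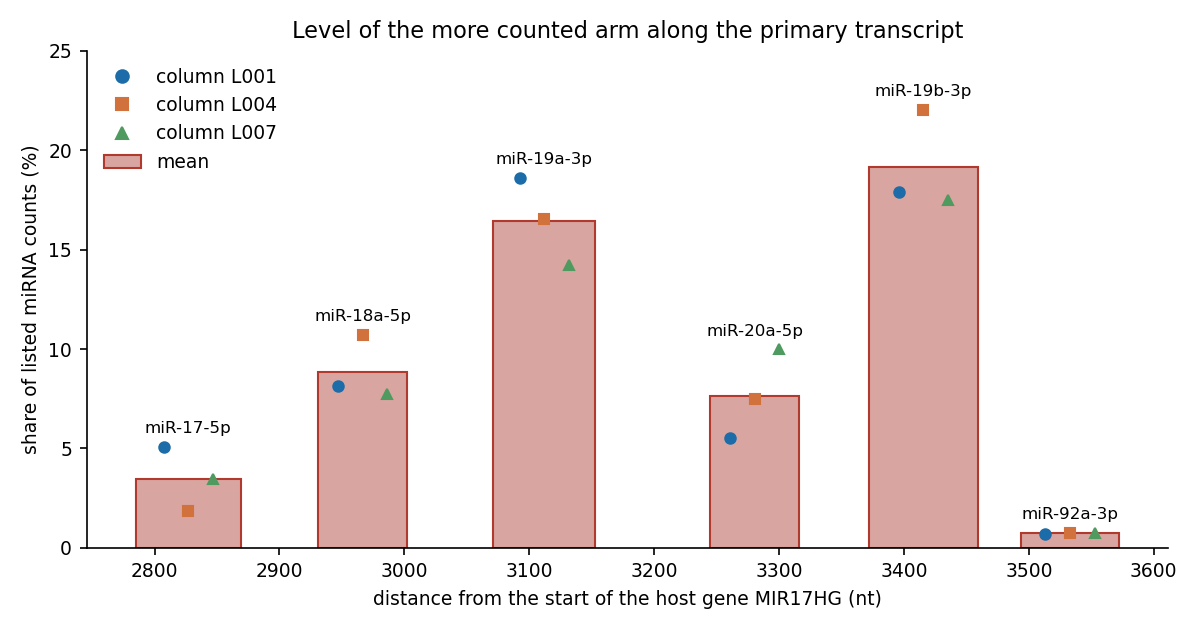
Share of the listed miRNA counts (%) of the more counted arm of each hairpin against the distance of the hairpin from the start of MIR17HG (nt). Bars are means as wide as the hairpin, and points are the columns L001, L004 and L007. The bars of miR-19a-3p and miR-19b-3p are the tallest, at 16.5% and 19.1%, and the last bar, miR-92a-3p, is at 0.729%.

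Since the X-linked copies can add to miR-19b-3p and miR-92a-3p, the range was also taken without them. Over all 6 hairpins the highest guide exceeded the lowest 26.9-fold in L001, 29.4-fold in L004 and 23.5-fold in L007 (log2 4.73 ± 0.16, SD). Without these entries it was 2.35 ± 0.69 on the log2 scale (SD, n = 3), since the lowest guide was then miR-17-5p. miR-19a-3p, which has a single locus, exceeded miR-92a-3p 22.5-fold (log2 4.49 ± 0.25, SD).

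Other clusters with at least 3 listed hairpins had narrower ranges between the guides with the highest and lowest means. The range was 26.1-fold in miR-17-92, 16.5-fold in miR-106b-25 (miR-93-5p over miR-25-3p) and 3.81-fold in the cluster of miR-183, miR-96 and miR-182 (miR-182-5p over miR-96-5p). It was 3.32-fold in that of miR-99b, let-7e and miR-125a (miR-125a-5p over miR-99b-5p), 2.74-fold in that of miR-23a, miR-27a and miR-24-2 (miR-24-3p over miR-23a-3p) and 1.75-fold in that of miR-23b, miR-27b and miR-24-1 (miR-27b-3p over miR-24-3p). The same miR-24-3p count stands in both of these last ranges and cannot be divided between the clusters. The range was not tested between clusters, and miR-17-92 has 6 hairpins where each of the others has 3. Among clusters with fewer listed hairpins, that of let-7a-3 and let-7b had a wider range than miR-17-92, 49.3-fold for let-7a-5p over let-7b-5p (39.3-fold, 65.2-fold and 46.9-fold in L001, L004 and L007), and it was named after its values were seen. The let-7a-5p count is shared with other let-7a loci.

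The hairpins are shown because their arms were compared. Sequences are from RefSeq (GRCh38.p14, chromosome 13, plus strand), 5′ to 3′, with the listed mature arms in capitals.
MIR17: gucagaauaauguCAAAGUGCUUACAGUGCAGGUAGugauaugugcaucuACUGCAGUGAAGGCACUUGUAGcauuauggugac
MIR18A: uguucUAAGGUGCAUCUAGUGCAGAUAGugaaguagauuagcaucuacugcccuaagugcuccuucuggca
MIR19A: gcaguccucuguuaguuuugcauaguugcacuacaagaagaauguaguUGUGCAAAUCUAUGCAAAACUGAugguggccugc
MIR20A: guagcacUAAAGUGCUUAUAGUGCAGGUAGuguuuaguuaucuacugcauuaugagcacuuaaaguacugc
MIR19B1: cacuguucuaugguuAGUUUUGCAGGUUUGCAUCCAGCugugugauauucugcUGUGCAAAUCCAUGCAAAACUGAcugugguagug
MIR92A1: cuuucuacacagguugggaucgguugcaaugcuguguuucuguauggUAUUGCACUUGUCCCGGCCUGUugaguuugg

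Of the 12 arms annotated on these hairpins, 8 were listed. miR-18a-3p, miR-19a-5p, miR-20a-3p and miR-92a-1-5p were not listed. The smallest count in the table is 11, so an unlisted arm may have had reads in some libraries. The MIR17 and MIR19B1 hairpins had both arms listed, and the same arm led in all 3 libraries. miR-17-5p exceeded miR-17-3p 51.0-fold in L001, 14.4-fold in L004 and 21.5-fold in L007 (mean log2 ratio 4.64 ± 0.93, SD, with 0.5 added to both counts). The ratio was lowest in L004, where miR-17-5p was also at its lowest share. miR-19b-3p exceeded miR-19b-1-5p 467-fold, 572-fold and 526-fold in L001, L004 and L007 (mean log2 ratio 8.99 ± 0.15, SD, with 0.5 added), with the 3p count shared with the MIR19B2 locus and the 5p count of 17 to 62.

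The more counted arm was the 5p arm in MIR17, MIR18A and MIR20A and the 3p arm in MIR19A, MIR19B1 and MIR92A1. Of these 6 arms, 5 began with U and miR-17-5p with C, while the 6 opposite arms all began with A. Over the 123 listed miRNAs with a RefSeq sequence, of either arm, 56.1% began with U, against 62.5% of the 8 listed members. In folds predicted with RNAfold, the first 4 bases of the more counted arm were in fewer G-C pairs than those of the opposite arm in 4 hairpins (MIR17, MIR18A, MIR20A and MIR92A1) and in more in 2 (MIR19A and MIR19B1). The predicted free energy was -38.7 kcal/mol for MIR19A and -38.5 for MIR19B1, the hairpins of the most counted guides, and -35.5 for MIR92A1, -33.8 for MIR17, -31.0 for MIR20A and -21.1 for MIR18A. The hairpins are 71 to 87 nt long, and per nt the order changed. The energy per nt was -0.472 for MIR19A, -0.455 for MIR92A1, -0.443 for MIR19B1, -0.437 for MIR20A, -0.402 for MIR17 and -0.297 for MIR18A. MIR18A had the weakest predicted fold by either measure, although its guide ranked 3 by mean share.

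Base composition differed between members. The G+C content was 39.1% in miR-19b-3p, 34.8% in miR-19a-3p, 43.5% in miR-18a-5p, 39.1% in miR-20a-5p, 47.8% in miR-17-5p and 54.5% in miR-92a-3p, in the order of their mean counts. The G+C content was thus lowest in the miR-19 pair and miR-20a-5p and highest in miR-92a-3p, and its part in the counts was not tested. The median was 45.7% over the 8 members and 47.8% over all 123 matched entries, whose range was 19.05% to 71.4%.

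By seed, miR-19a-3p and miR-19b-3p (GUGCAAA) took 65.1%, 64.7% and 58.9% of the cluster's counts in L001, L004 and L007 (62.9% ± 3.5, SD, n = 3). miR-17-5p and miR-20a-5p (AAAGUGC) took 18.9%, 15.7% and 24.9% (19.9% ± 4.7, SD, n = 3). miR-18a-5p (AAGGUGC) took 14.5%, 18.02% and 14.4% (15.6% ± 2.1, SD, n = 3). The miR-19 seed led in every library, and the ranges of the miR-17 and miR-18a seeds overlapped. miR-92a-3p (AUUGCAC) took 1.29% ± 0.079, miR-17-3p (CUGCAGU) 0.231% ± 0.061 and miR-19b-1-5p (GUUUUGC) 0.0649% ± 0.0033 (SD, n = 3 each).

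The cluster has a pair of paralogues, miR-106a-363 on chromosome X and miR-106b-25 on chromosome 7. Of the listed miR-106b-25 entries, miR-106b-5p and miR-93-5p carry the miR-17 seed and miR-25-3p the miR-92a seed. miR-106b-3p and miR-93-3p carry neither, and no listed entry of that cluster carries the miR-19 or miR-18a seed. All 3 hairpins of miR-106b-25 were listed, with 5 entries, and of the miR-106a-363 hairpins miR-106a alone was listed under its own name. Their mature sequences from RefSeq (GRCh38.p14) are shown for comparison with the members, again with bases 2 to 8 in capitals.
miR-106a-5p: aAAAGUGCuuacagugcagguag
miR-106b-5p: uAAAGUGCugacagugcagau
miR-93-5p: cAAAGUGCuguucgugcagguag
miR-25-3p: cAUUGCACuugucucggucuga

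From miR-17-5p to miR-106a-5p the only change is C1A, so the sequences are the same from base 2 on. From miR-20a-5p to miR-106b-5p, which is 21 nt long, the changes are U10G, U12C and G20A. From miR-92a-3p to miR-25-3p they are U1C, C14U, C18U and U22A.

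The miR-17-92 entries outnumbered those of both paralogues in all 3 libraries. miR-17-92 took 56.5% ± 2.9 of the miRNA counts and miR-106b-25 took 4.03% ± 0.52 (SD, n = 3 each), with 3.44%, 4.29% and 4.38% for miR-106b-25 in L001, L004 and L007. The ratio was 16.3-fold in L001, 13.9-fold in L004 and 12.3-fold in L007 (log2 3.81 ± 0.20, SD). miR-106a-5p had 142, 278 and 187 counts (0.258% ± 0.098, SD, n = 3), and miR-17-92 exceeded it 237-fold, 345-fold and 147-fold (log2 7.84 ± 0.61, SD). That ratio depended on where miR-19b-3p and miR-92a-3p were counted. With both given to miR-106a-363, miR-17-92 was 1.99-fold, 1.60-fold and 1.92-fold higher (log2 0.87 ± 0.17, SD), and with both left out the log2 ratio was 7.22 ± 0.57. The other X-linked hairpins that have a name of their own, miR-18b, miR-20b and miR-363, were not listed.

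Members were compared with their nearest relatives by seed. The miR-17 seed (AAAGUGC) was listed in 5 miRNAs, which took 14.1%, 13.6% and 17.97% of the miRNA counts in L001, L004 and L007, and miR-17-5p and miR-20a-5p made up 75.4%, 68.5% and 74.7% of that. miR-20a-5p exceeded miR-93-5p (2.07% ± 0.22, SD, n = 3) 3.61-fold (log2 1.85 ± 0.42, SD) and miR-106b-5p (1.77% ± 0.62, SD, n = 3) 4.40-fold (log2 2.14 ± 0.38, SD), each in 3 of 3 libraries. miR-17-5p stood closer to these relatives. Its ratio to miR-93-5p was 2.38, 1.02 and 1.54 in L001, L004 and L007 (log2 0.63 ± 0.61, SD), and in L004 the exact 95% interval of 0.970 to 1.08 held 1. Its ratio to miR-106b-5p was 4.67, 0.811 and 1.79 (log2 0.92 ± 1.3, SD), so miR-17-5p was the lower of this pair in L004 and the pair was not separated. miR-17-5p exceeded miR-106a-5p 13.0-fold (log2 3.70 ± 0.64, SD) in 3 of 3 libraries, for sequences that differ at the first base only.

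The miR-92a seed (AUUGCAC) was listed in 4 miRNAs, of whose counts miR-92a-3p made up 68.9%, 73.7% and 55.1%. miR-92a-3p exceeded miR-25-3p (0.126% ± 0.020) 5.83-fold (log2 2.54 ± 0.29, SD) and miR-92b-3p (0.0875% ± 0.010) 8.36-fold (log2 3.06 ± 0.15, SD), in 3 of 3 libraries each. The lower share in L007 went with miR-32-5p, which took 0.0882%, 0.0827% and 0.377% of the miRNA counts in L001, L004 and L007.

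**Figure D4:**
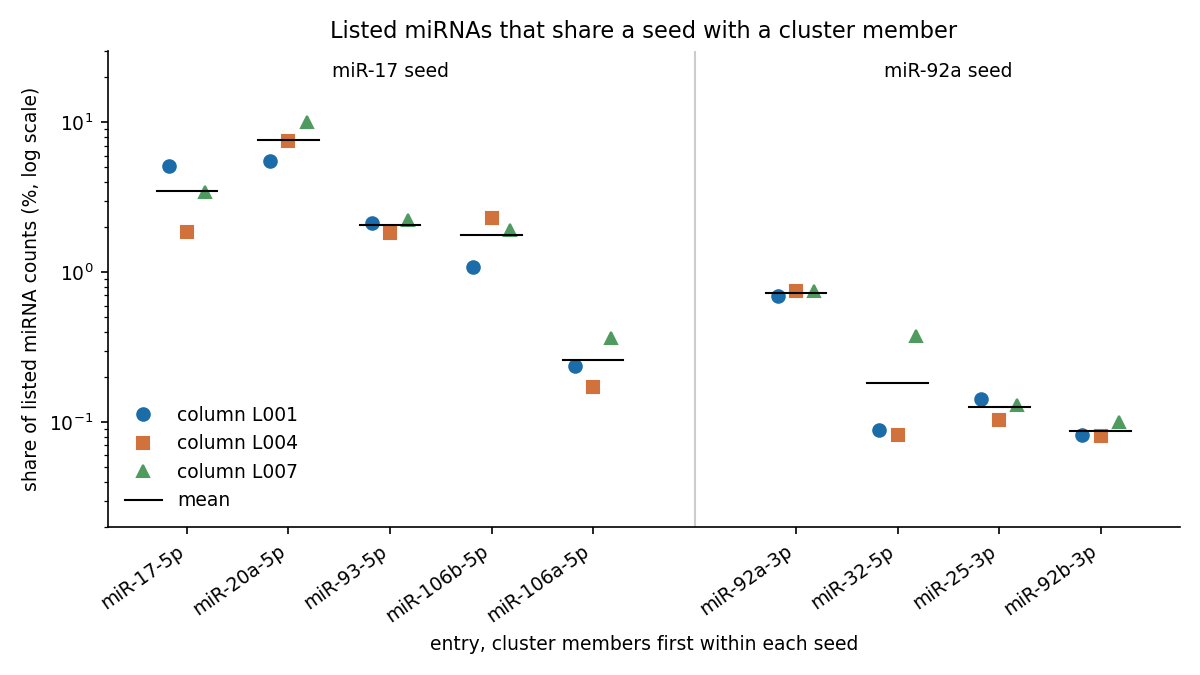
Share of the listed miRNA counts (%, log scale) of the miRNAs with the miR-17 seed (left) and the miR-92a seed (right) in the columns L001, L004 and L007 (points) with the mean (line), cluster members first. miR-20a-5p lies above its relatives outside the cluster in every library, and miR-17-5p overlaps miR-93-5p and miR-106b-5p.

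In the paralogues too the 5p arm of the miR-17 family hairpins led. miR-17-5p exceeded its 3p arm 25.1-fold by the mean log2 ratio of the counts as deposited, against 52.6-fold for miR-106b (log2 5.72 ± 0.85, SD) and 68.0-fold for miR-93 (log2 6.09 ± 0.37, SD). The 3p arms of the paralogues had 14 to 58 counts, and the range of the ratio of miR-17 overlapped both of theirs.

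Between libraries, 6 of the 8 members varied less than the median of the other 129 miRNAs. The highest share over the lowest was 1.34-fold at the median of the 8 members and 1.64-fold at the median of the others. Over the 33 miRNAs with a mean share of at least 0.5%, members included, the median was 1.38-fold. Against that median the guides fell on both sides. miR-92a-3p, miR-19b-3p and miR-19a-3p lay below it, miR-18a-5p at it, and miR-20a-5p and miR-17-5p above it. The highest share over the lowest was 1.08-fold for miR-92a-3p, the smallest of all 137 miRNAs, and 1.16-fold for miR-19b-1-5p. It was 1.26-fold for miR-19b-3p, 1.31-fold for miR-19a-3p and 1.38-fold for miR-18a-5p. It was 1.60-fold for miR-17-3p, 1.81-fold for miR-20a-5p and 2.73-fold for miR-17-5p, and 21 miRNAs had a larger fold than miR-17-5p. miR-17-5p was highest in L001 and lowest in L004, whereas miR-20a-5p was lowest in L001 and highest in L007, although both are cut from 1 transcript. Several miRNAs outside the cluster had their extremes in the same libraries as miR-17-5p. Among them was miR-16-5p, with 3.12%, 0.805% and 2.19% in L001, L004 and L007. Since the members make up much of each library, their levels were also set against the counts of the other miRNAs alone. The fold then fell to 2.52 for miR-17-5p, 1.72 for miR-20a-5p and 1.53 for miR-17-3p. It rose to 1.58 for miR-18a-5p, 1.44 for miR-19b-3p, 1.37 for miR-19a-3p, 1.32 for miR-19b-1-5p and 1.18 for miR-92a-3p. The comparison of medians above was made for shares of all listed miRNA counts only.

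**Figure D5:**
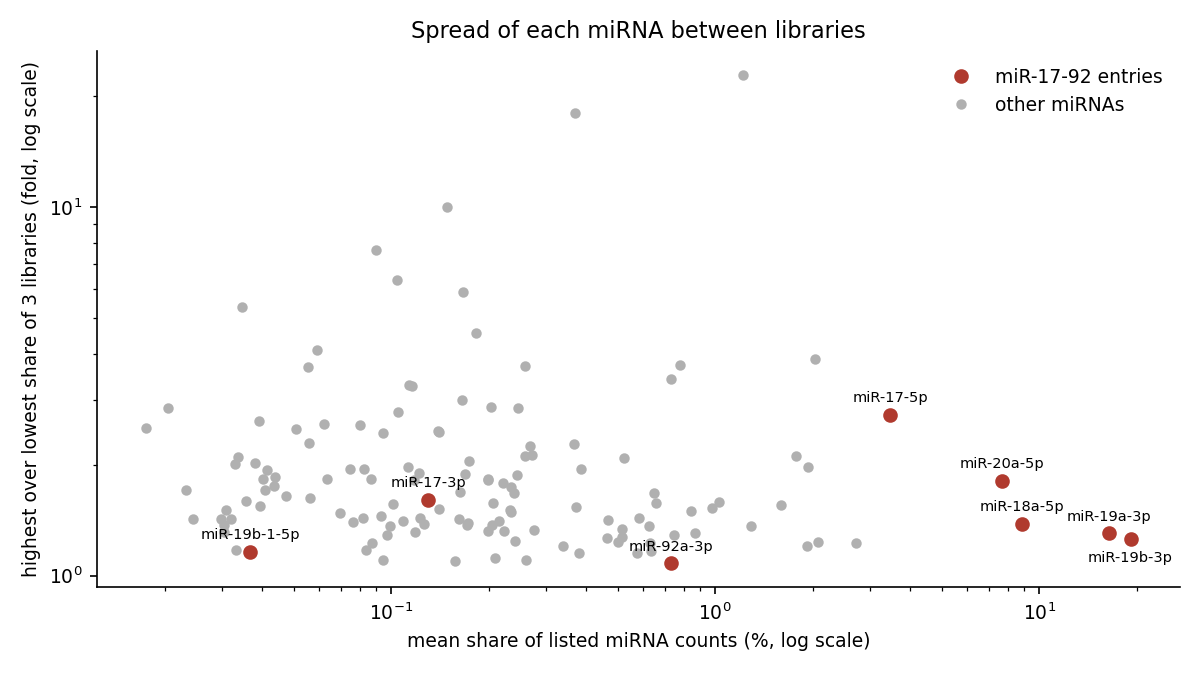
Highest over lowest share among 3 libraries (fold, log scale) against the mean share of the listed miRNA counts (%, log scale) for 137 miRNAs, with miR-17-92 entries in red and the other miRNAs in grey. miR-17-5p is the highest red point at 2.73-fold, and miR-92a-3p is the lowest at 1.08-fold.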

How the data were processed

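Raw counts of miRNA and snoRNA entries in 3 small RNA libraries of HEK293 cells were deposited by the authors as 1 table, and the counts used here are whole numbers per entry with no normalization. Per the submitters' processing notes, GRCh38.p10 was the build. The miRNA annotation, aligner, trimming and filters used were not given in the sources used here. Every listed entry had more than 10 counts in all 3 columns. The deposited snoRNA files, also counts per the file headers, were used only to compare the columns with the sample titles. Of the table's columns, 2 matched no title: they were used as libraries of the only group, with L001 alone as an alternative.

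Each entry was expressed as a percentage of the library's listed miRNA counts, which numbered 51173 to 160916, with exact Clopper-Pearson 95% intervals, and libraries were averaged with equal weight. Ratios were taken within a library, with exact conditional binomial 95% intervals, and averaged on the log2 scale. Neighbours in the order were called separated where the ratio had 1 direction in all 3 libraries and its mean log2 exceeded its SD. No pseudocount was used, except that the log2 arm ratios of the members had 0.5 added to both counts, with 1 as an alternative. The coverage of the intervals was checked only on simulated binomial and Poisson counts. These have no duplicate reads and no spread between libraries, so the check does not bear on either. Hairpins were folded with RNAfold (ViennaRNA 2.7.2). Genes came from GENCODE 29 and sequences from RefSeq (GRCh38.p14), in which 123 of 137 miRNA entries and all 8 members matched by name. Computation used Python 3.11.15 with SciPy 1.17.1, NumPy 2.4.6 and pandas 2.3.3, and plots matplotlib 3.10.9.

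Named miRNAs were all entries of the cluster, all listed entries of its paralogues, the 5 most counted miRNAs outside them, and the most and least counted hairpin of each other cluster on a list with at least 3 listed hairpins. miR-32-5p and miR-92b-3p were added for their shared seed. The members and lists were chosen with earlier results of these data known.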

Additional observations from a re-analysis of the deposited data

How the results depend on the processing

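Of 120 recomputed values, 97 moved by less than the spread between libraries, 22 moved further and 1 reversed. The 97 include all values with 1 library left out, since leaving out 1 of 3 cannot move a mean by the SD. They also include the seed groups by bases 2 to 7, which hold the same entries as those by bases 2 to 8. The tally is therefore no measure of how stable the results are. The members' share, 56.5%, was 46.1% of all listed entries and 62.2% among entries of at least 100 counts. It was 45.7% without miR-19b-3p and miR-92a-3p, which have a second locus. Members left out, here and in the next sentence, were taken out of the miRNA total too, so these are shares of the remaining counts. Leaving out a single member gave 52.3% (miR-18a-5p), 47.9% (miR-19a-3p), 46.2% (miR-19b-3p) and 52.8% (miR-20a-5p), by construction. Leaving out 1 library gave 54.9% to 57.8%. Without the members that have a second locus, the log2 range over the hairpins was 2.35, and the log2 ratio to miR-106b-25 was 3.19. For miR-106a-363 the log2 ratio was 0.87 with the shared entries given to it and 7.22 with them left out.

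L001 was the library named in the plan, with means to be used instead if all 3 columns could be given to the group. As an alternative beside those means, L001 alone was not planned. With L001 alone, log2 arm ratios with 0.5 added were 5.66 for miR-17 (4.64 over 3 libraries) and 8.84 for miR-19b (8.99). The log2 ratio to miR-106b-25 was 4.03, the GUUUUGC seed took 0.0683% of the members' counts, and the log2 ratio of miR-19b-3p to miR-19a-3p turned to -0.0552. The cause was not tested. The log2 ratio of miR-20a-5p to miR-17-5p, 1.22 over 3 libraries, was 0.11 with L001 alone, 0.82 without L004 and 1.77 without L001. No paired analysis was possible because there is 1 group. Entries of 17 to 62 counts, such as miR-19b-1-5p, have wide counting intervals, and the 4 unlisted arms could not be measured.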
